A study of Mus musculus with 18 samples.

Results

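Interferon-stimulated genes are the genes that cells switch on when interferon reaches them. Of 37 such genes listed by symbol, 36 were matched to rows of the deposited gene counts, out of 38924 rows in all, and Gbp5 was not analysed here. All 36 passed the filter on low counts, which left 16577 genes tested. They were followed in mouse fibroblasts of heart (HF), kidney (KF) and tail (TF), each measured in 2 states, transplanted (HFs, KFs, TFs) or kept in culture (HFc, KFc, TFc), with 3 libraries in each of the 6 groups. All cells carried the Rosa mT/mG reporter on a C57BL/6 background, which marks them with TdTomato. The labels give the donors as 10-week-old males, which KFs replicate 3 went against (described with the libraries). After 10 days of culture, 400000 to 500000 cells per kidney were soaked into gelatin foam and placed below the capsule of syngeneic C57BL/6J recipients aged 10 to 11 weeks, and live cells positive for TdTomato and negative for the leukocyte protein CD45 were sorted after 3 days. The controls were cells left over from the same isolations, replated and cultured for 3 more days. Whether they were also sorted is not given in the sources used here, so an effect of the site and one of recovering cells from the kidney cannot be told apart. The comparison asked how fibroblasts of each organ responded to the new site, with the kidney fibroblasts returned to their own organ.

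Type I interferons bind the receptor chains Ifnar1 and Ifnar2, and interferon gamma binds Ifngr1 and Ifngr2. Janus kinases at these receptors phosphorylate the STAT proteins. Stat2 and Irf9 belong to a complex that binds the interferon-stimulated response element (ISRE) in the promoters of antiviral genes, whereas the gamma-activated site (GAS), found at the promoter of Irf1, serves interferon gamma. Fibroblasts are classical producers of and responders to type I interferon, and a low level of signalling keeps the antiviral genes ready at rest.

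Both motifs were searched for in the promoter windows of RefSeq (GRCm38.p6, 250 bases before to 50 bases after a gene's start), which held 28 of the 37 listed genes. No window was held for Oas2, Mx1, Mx2, Usp18, Zbp1, Rtp4, Parp14, Dhx58 and Iigp1. The ISRE letters, GAAA followed by any 2 bases and another GAAA on either strand, occurred in 17 of the 28 genes (60.7%) and in 3.99% of all 27025 genes with a window. The GAS letters TTCNNNGAA, which read the same on both strands, occurred in 8 of the 28 (28.6%) and in 9.55% of all genes, and 5 genes held both. Irf7, Oasl1, Oasl2, Ifi44, Xaf1, Cmpk2, Irf9 and Tap1 held neither in these windows. The 250 bases before the start are shown for 4 genes on which the results turn, with ISRE and GAS matches in capitals, 5′ to 3′ on the strand of the gene. Isg15 (chr4:156200819-156201068, minus strand) holds 3 overlapping ISRE matches, the first 78 bases before the start. Ifit3 (chr19:34583279-34583528, plus strand) holds ISRE matches that begin 156 and 122 bases before it, and Irgm1 (chr11:48871421-48871670, minus strand) an overlapping pair that begins 30 bases before it. Irf1 (chr11:53769764-53770013, plus strand) holds a GAS match 90 bases before its start and no ISRE match.
Isg15: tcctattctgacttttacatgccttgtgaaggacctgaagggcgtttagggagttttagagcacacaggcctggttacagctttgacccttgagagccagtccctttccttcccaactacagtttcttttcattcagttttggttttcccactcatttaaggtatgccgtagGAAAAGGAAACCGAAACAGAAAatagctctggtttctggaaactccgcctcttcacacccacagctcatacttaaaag
Ifit3: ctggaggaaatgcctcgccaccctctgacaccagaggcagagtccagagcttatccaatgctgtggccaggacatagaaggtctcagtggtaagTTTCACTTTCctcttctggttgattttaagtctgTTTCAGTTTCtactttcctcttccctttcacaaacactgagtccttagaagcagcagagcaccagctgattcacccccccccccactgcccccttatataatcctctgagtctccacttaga
Irgm1: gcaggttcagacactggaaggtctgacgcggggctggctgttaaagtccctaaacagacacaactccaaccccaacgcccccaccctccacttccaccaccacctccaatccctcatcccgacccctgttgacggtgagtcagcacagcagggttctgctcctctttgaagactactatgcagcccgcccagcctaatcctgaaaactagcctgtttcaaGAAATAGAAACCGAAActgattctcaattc
Irf1: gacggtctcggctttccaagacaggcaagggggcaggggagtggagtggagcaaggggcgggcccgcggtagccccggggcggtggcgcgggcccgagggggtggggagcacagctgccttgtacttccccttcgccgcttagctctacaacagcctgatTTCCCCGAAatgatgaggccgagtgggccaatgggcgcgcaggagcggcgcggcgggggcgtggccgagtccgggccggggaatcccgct

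Library totals lay between 17927838 and 32245168 counts. Levels are given as CPM, counts relative to the scaled size of the library, which are not divided by gene length, so a level was compared across libraries and not between genes. The floor of detection was set at 3 counts in a library. KFs replicate 3 went against its labels: it held 1490 CPM of Xist, which is transcribed from the inactive X chromosome of females, against at most 0.404 in the other 17 libraries, and 0.721 CPM of 4 Y-linked genes against 175 to 230. Over all genes tested, KFs replicate 3 also stood apart. Its log2 levels correlated at 0.9373 and 0.9376 with KFs replicates 1 and 2, which correlated at 0.9828 with each other. KFs replicate 2 stood apart in the interferon-stimulated genes themselves. It was the lowest KFs library for 35 of the 36, and the median of their log2 ratios to the mean of the KFc libraries (on CPM plus 0.5) was 0.0014 there, against 2.37 in replicate 1 and 1.70 in replicate 3. The main counts of calls that rest on KFs are therefore also given without single KFs libraries. The paper describes 3 biological replicates in each condition. It does not say whether the libraries of a group came from separate recipients or cultures, so p-values measure the spread between these libraries. The fit took 1 estimate of that spread per gene from all 6 groups together. Errors and p-values of KFs comparisons therefore do not measure the spread within KFs alone. Fibroblast genes were abundant throughout: the summed level of 10 fibroblast markers lay between 22100 and 162000 CPM. It was 104000, 80300 and 30100 CPM in KFs replicates 1, 2 and 3. In bulk libraries, fewer expressing cells and less RNA per cell cannot be told apart.

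The median change of the interferon-stimulated genes after transplantation was a rise in all 3 organs, and it was largest in tail fibroblasts. In kidney KFs replicate 2 did not share the rise: its median log2 ratio to the cultured mean (on CPM plus 0.5) was 0.0014. A gene was called when its p from the quasi-likelihood test of edgeR, adjusted over the whole table by Benjamini and Hochberg, was under 0.05 and its log2 fold change beyond 1. In TFs 35 of the 36 were higher than in TFc and none lower, where 11.0% of all genes tested were higher and 5.53% lower. In HFs 25 were higher than in HFc and none lower, against backgrounds of 18.3% and 9.33%. In KFs 24 were higher than in KFc and none lower, against 14.7% and 7.99%. Over the 36 genes the median log2 fold change was 3.78 in tail, 2.35 in heart and 2.04 in kidney, while the median over all genes tested was 0.0, 0.047 and 0.093. Without KFs replicate 1 the kidney count was 18 with a median of 1.28, without KFs replicate 2 it was 28 with a median of 2.44, and without KFs replicate 3 it was 23 with a median of 1.90. The calls lost without KFs replicate 1 were those of Bst2, Ifit1, Mx1, Rtp4, Stat2 and Usp18. When KFs and KFc were fitted alone the kidney count was 17, and Mx2 was lost beside the same genes.

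Separation by library was widest in tail as well. Every TFs library lay above every TFc library for 36 of 36 genes, where this held for 29.3% of all genes tested. Every HFs library lay above every HFc library for 31 genes and below for 2, Ifit2 and Irgm1, against 33.3% and 34.0% of all genes. In kidney 14 genes separated upward and 1 downward, Ifi35, against 26.2% and 25.0%, and the other 21 overlapped. For 16 of the 36, KFs replicate 2 lay below every KFc library, where this held for 41.0% of all genes tested.

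**Figure D1:**
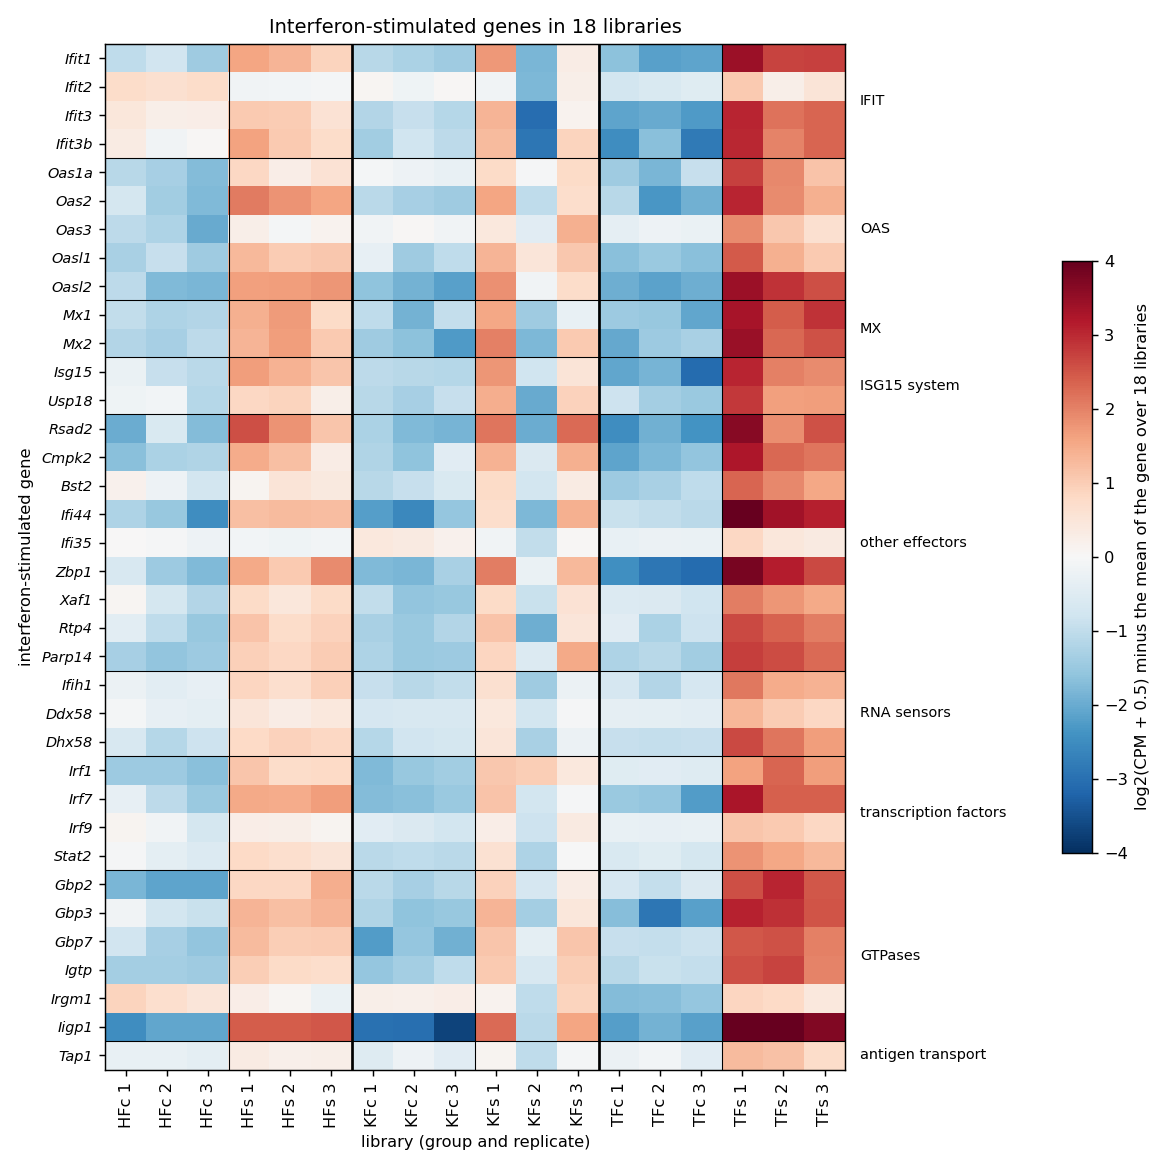
Heat map of log2(CPM + 0.5) of the 36 interferon-stimulated genes, each centred on its own mean over the 18 libraries, with genes in rows grouped by role and libraries in columns grouped by organ and state (c, cultured; s, transplanted). The 3 TFs columns are the darkest red. KFs 2 is the lowest KFs column for 35 of the 36 genes. In it 14 genes lie above and 16 below every KFc library, against 42.3% and 41.0% of all genes tested.

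Of the 36 genes, 21 were called higher in all 3 organs. These were Ifit1, Oas2, Oasl1, Oasl2, Mx1, Mx2, Isg15, Rsad2, Cmpk2, Ifi44, Zbp1, Xaf1, Rtp4, Parp14, Irf1, Irf7, Gbp2, Gbp3, Gbp7, Igtp and Iigp1. Dhx58, Ifih1, Oas1a and Oas3 were called in heart and tail, Bst2, Stat2 and Usp18 in kidney and tail, and Ddx58, Ifit2, Ifit3, Ifit3b, Irf9, Irgm1 and Tap1 in tail. Ifi35 was called in none. The shares of all genes tested with each of these patterns were not counted. Every pattern with a call includes tail, so each such share is at most the 11.0% of all genes called higher in TFs. Whether a response differed between organs was tested separately.

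**Figure D2:**
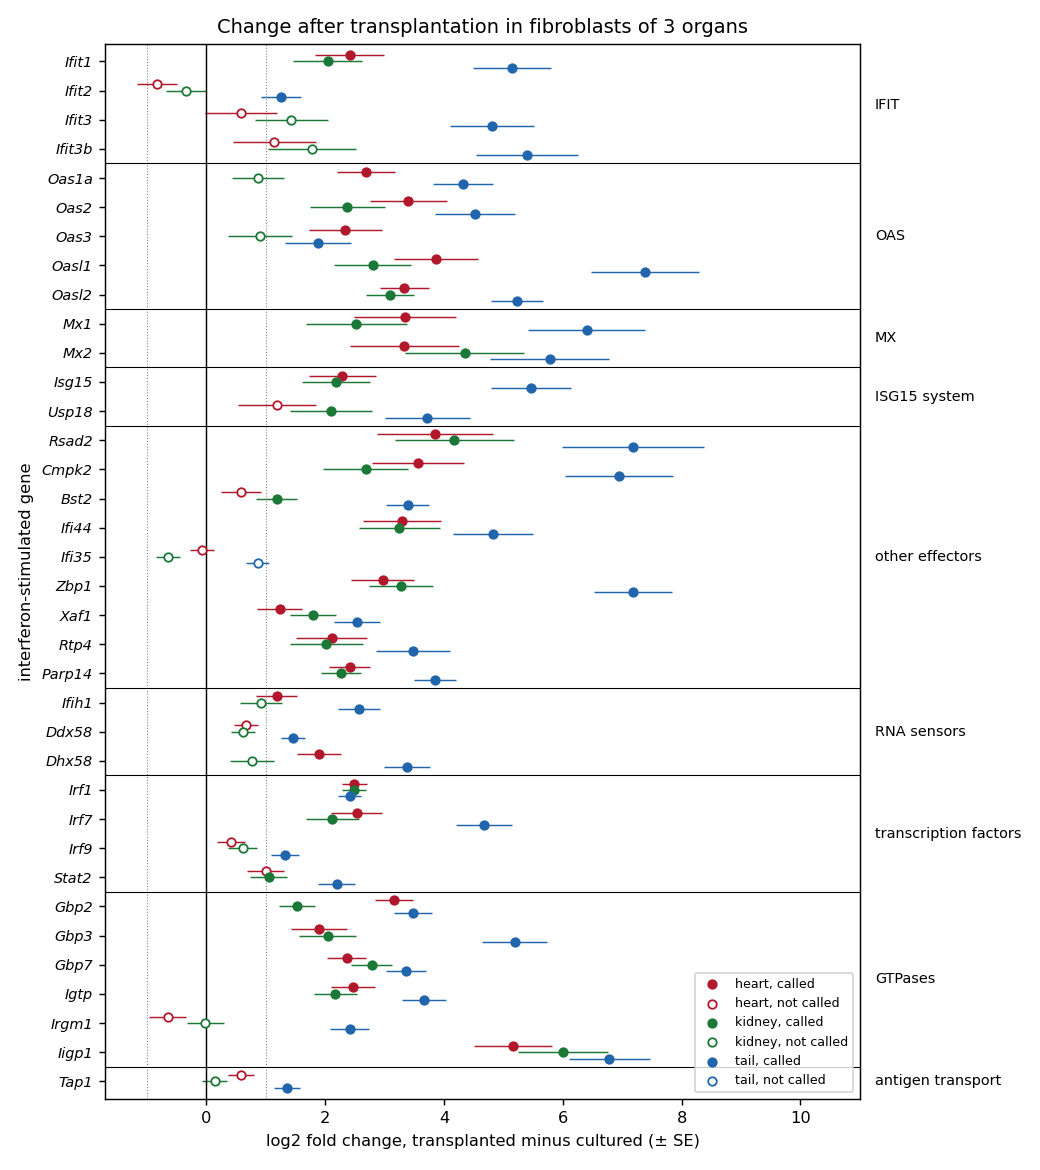
Log2 fold change (transplanted minus cultured, ± SE from edgeR) of each interferon-stimulated gene in heart, kidney and tail fibroblasts; filled points passed both thresholds, and dotted lines mark a log2 fold change of 1 and -1. Tail points lie to the right for most genes, and the 3 points of Irf1 coincide near 2.4 to 2.5.

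The transcription factors that relay interferon signals were examined first. Irf7 amplifies the type I response. It lay at 7.68, 4.50 and 3.19 CPM in HFc and at 29, 28.3 and 32 in HFs. In kidney it measured 2.61, 2.72 and 3.19 CPM in KFc and 22, 5.64 and 9.58 in KFs. In tail it measured 3.20, 3.02 and 1.67 CPM in TFc and 97.9, 53.1 and 53 in TFs. No transplanted library overlapped its cultured controls, and the log2 fold changes were 2.53 ± 0.43 in heart (SE; adjusted p = 0.000139), 2.12 ± 0.44 in kidney (0.000961) and 4.67 ± 0.47 in tail (2.6e-06).

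Stat2, a subunit of the ISRE-binding complex, lay at 33.2, 25.6 and 22.9 CPM in HFc and at 59.8, 55 and 48.6 in HFs. KFc held 16, 16.7 and 15.8 CPM and KFs 52.6, 14.1 and 33.9. TFc held 22, 24 and 20.5 CPM and TFs 120, 99.8 and 83.6. The heart and tail groups did not overlap, whereas KFs replicate 2 lay below every KFc library. The log2 fold change was 1.00 ± 0.31 in heart (adjusted p = 0.0115), just under the limit on its size, and it passed that limit, at 1.01 to 1.16, in 13 of 25 other settings. It passed in kidney at 1.05 ± 0.31 (adjusted p = 0.0108), a call that was not made without KFs replicate 1, without KFs replicate 3, when KFs and KFc were fitted alone and when replicate number was a block (0.98, adjusted p = 0.0122), and in tail at 2.19 ± 0.31 (adjusted p = 7.09e-05).

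Irf9, the DNA-binding subunit of that complex, was called in tail. It measured 32, 26.7 and 18 CPM in HFc against 35.6, 34.8 and 31.9 in HFs, which overlapped. In kidney it measured 21.5, 19.6 and 17.6 CPM in KFc against 35.7, 16.5 and 37.6 in KFs. The tail groups were separate, with 23.7, 23.3 and 24.1 CPM in TFc and 64.2, 61.3 and 52.7 in TFs, and there Irf9 rose by 1.32 ± 0.24 on the log2 scale (adjusted p = 0.000521), against 0.41 ± 0.24 in heart and 0.61 ± 0.24 in kidney, which were not called.

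Irf1, an early target of interferon gamma and of inflammatory signals, had close log2 fold changes in the 3 organs. It lay at 7.90, 7.95 and 6.73 CPM in HFc and at 49.4, 38 and 39.8 in HFs. It lay at 6.30, 7.64 and 8.34 CPM in KFc and at 48.2, 45.3 and 30.9 in KFs. It lay at 16.2, 16.6 and 15.9 CPM in TFc and at 70.2, 116 and 73 in TFs. No groups overlapped, and KFs replicate 2 lay close to KFs replicate 1 for this gene. The log2 fold changes were 2.49 ± 0.21, 2.48 ± 0.20 and 2.41 ± 0.20 in heart, kidney and tail, with adjusted p of 1.36e-07, 2.04e-07 and 4.04e-07. The difference between the heart and tail responses was 0.077 ± 0.27 (adjusted p = 0.881), and that between kidney and tail 0.068 ± 0.27 (adjusted p = 0.916).

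**Figure D3:**
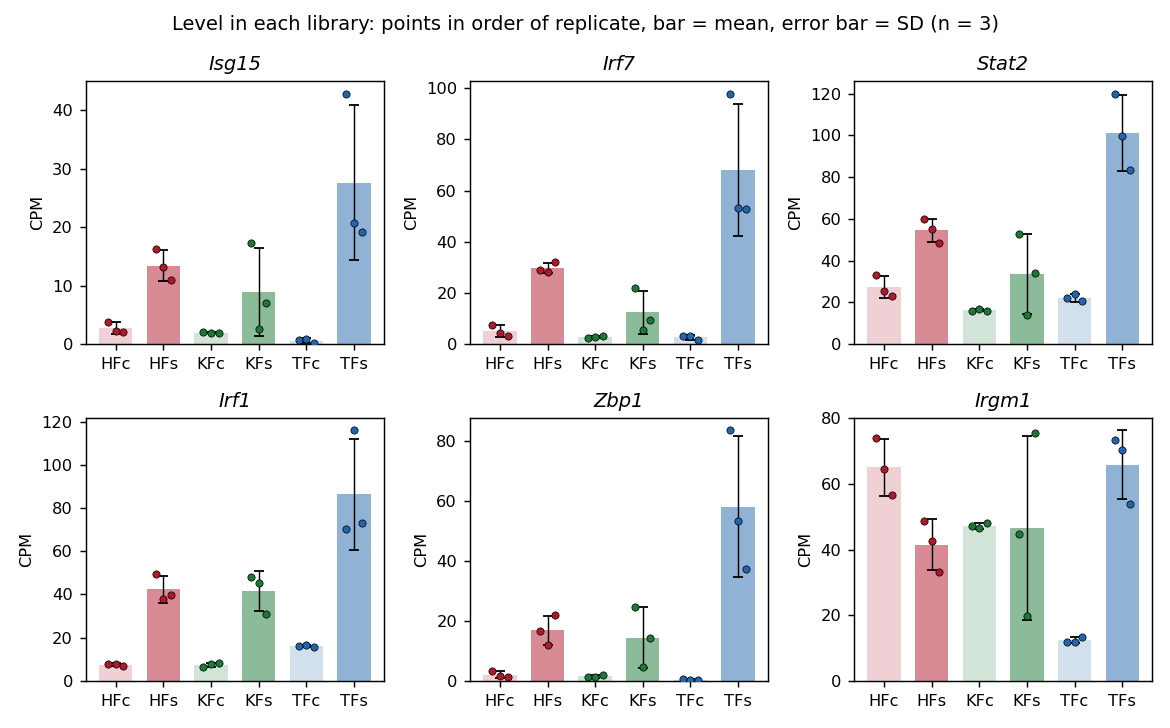
CPM of Isg15, Irf7, Stat2, Irf1, Zbp1 and Irgm1 in each library (points, in order of replicate) with the mean (bar) and SD (error bar, n = 3) of each group. TFs is the highest bar in the panels of Isg15, Irf7, Stat2, Irf1 and Zbp1, and in the Irgm1 panel HFs lies below HFc while TFs lies above TFc.

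Isg15 encodes a ubiquitin-like protein that is conjugated to other proteins during an antiviral response, and Usp18 is the protease that removes it and dampens receptor signalling. Isg15 measured 3.86, 2.30 and 2.01 CPM in HFc and 16.2, 13.2 and 10.9 in HFs. It measured 2.05, 1.95 and 1.89 CPM in KFc and 17.3, 2.56 and 6.97 in KFs. TFc held 0.742, 0.941 and 0.131 CPM and TFs 42.8, 20.7 and 19.2. No transplanted library overlapped its controls, although KFs replicate 2 lay close to them. The rises were 2.29 ± 0.57 in heart (adjusted p = 0.0029), 2.18 ± 0.57 in kidney (0.00531) and 5.46 ± 0.67 in tail (1.63e-05), the last a 44-fold change. Usp18 was called in kidney (2.09 ± 0.69) and tail (3.72 ± 0.72), and its kidney call was lost without KFs replicate 1 and without KFc replicate 1 or 2.

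The IFIT genes encode proteins that bind viral RNA. All 4 rose in tail, with log2 fold changes from 1.26 to 5.40, and Ifit1 alone was called in heart (2.41 ± 0.58) and kidney (2.04 ± 0.58). In kidney Ifit1 measured 5.89, 5.27 and 4.62 CPM in KFc and 45.6, 3.36 and 16.3 in KFs, so the groups overlapped, and the call was lost without KFs replicate 1 and when KFs and KFc were fitted alone. In heart, Ifit2 was lower in every transplanted library. It measured 45.9, 42.5 and 45.7 CPM in HFc and 24.9, 25.2 and 25.6 in HFs. It measured 28.7, 24.4 and 27.9 CPM in KFc and 24.5, 7.46 and 32.4 in KFs, which overlapped. TFc held 16.2, 17.8 and 19.5 CPM and TFs 57.2, 32.1 and 38.9, all above culture. The heart change of -0.83 ± 0.34 (adjusted p = 0.0481) did not reach the limit on its size. The tail rise of 1.26 ± 0.34 (adjusted p = 0.00869) was not called without TFs replicate 1. Ifit3 and Ifit3b lie next to each other on chromosome 19, and 41.1% and 35.7% of the 75-base windows of their transcripts are shared between them, so reads could be split between the pair and their separate values are uncertain.

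The OAS genes encode sensors of double-stranded RNA that activate RNA decay, or catalytically inactive relatives (Oasl1). All 5 rose in heart and in tail, and Oas2, Oasl1 and Oasl2 in kidney. Oasl1 measured 0.146, 0.338 and 0.0982 CPM in HFc and 3.43, 2.73 and 2.85 in HFs. It measured 0.783, 0.105 and 0.299 CPM in KFc and 3.64, 1.73 and 2.92 in KFs. All TFc libraries were at or under the floor of 3 counts, at 0, 0.0784 and 0 CPM, and TFs held 8.29, 3.81 and 2.84, which is at least 44.2-fold higher against that floor per library. The log2 fold changes in heart and kidney were 3.87 ± 0.71 (adjusted p = 0.000261) and 2.80 ± 0.65 (adjusted p = 0.00225).

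Oas1a measured 0.728, 0.541 and 0.295 CPM in HFc and 4.15, 2.69 and 3.45 in HFs. It measured 1.98, 1.78 and 1.66 CPM in KFc and 3.92, 2.02 and 3.97 in KFs. It measured 0.475, 0.235 and 0.877 CPM in TFc and 16.8, 9.40 and 5.34 in TFs. The groups were separate in each organ, but the kidney difference of 0.87 ± 0.44 was not called (adjusted p = 0.115), while those of 2.68 ± 0.49 in heart and 4.32 ± 0.50 in tail were (adjusted p = 0.000249 and 9.53e-06). Its transcripts share 47.6% of their 75-base windows with Oas1g, so its level is uncertain. Oas3 rose by 1.88 ± 0.56 in tail, a call lost without TFs replicate 1 or TFc replicate 1.

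Genes of the MX family encode dynamin-like GTPases that trap viral particles, and both listed here were called in every organ. Only RNA was measured, so whether these cells make working MX proteins is not shown. Mx2, annotated as a polymorphic pseudogene, measured 0.583, 0.474 and 0.688 CPM in HFc and 5.77, 7.27 and 4.48 in HFs. It measured 0.410, 0.279 and 0 CPM in KFc and 9.37, 0.192 and 4.53 in KFs. It measured 0.089, 0.392 and 0.482 CPM in TFc and 26.2, 11.5 and 13.6 in TFs. Heart and tail separated from culture, whereas KFs replicate 2 lay within the KFc range. The log2 fold changes were 3.33 ± 0.92 in heart (adjusted p = 0.00608), 4.35 ± 1.0 in kidney (0.00232) and 5.78 ± 1.0 in tail (0.000397). Mx1 rose by 3.35 in heart, 2.52 in kidney and 6.40 in tail, and its kidney call was lost without KFs replicate 1 and without KFc replicate 2. When KFs and KFc were fitted alone, neither MX gene was called in kidney.

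Among the other effectors, Zbp1, a sensor of Z-form nucleic acid that can start necroptosis, measured 3.39, 1.73 and 1.28 CPM in HFc and 16.7, 12.1 and 21.9 in HFs. It measured 1.27, 1.22 and 1.96 CPM in KFc and 24.7, 4.58 and 14.2 in KFs. It measured 0.593, 0.314 and 0.219 CPM in TFc and 83.7, 53.3 and 37.4 in TFs. The groups did not overlap in any organ, and the log2 fold changes were 2.97 ± 0.53 in heart (adjusted p = 0.000215), 3.27 ± 0.54 in kidney (0.000153) and 7.18 ± 0.66 in tail (1.1e-06).

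Rsad2 encodes viperin, which makes a chain-terminating nucleotide, and Cmpk2, its neighbour on chromosome 12, supplies the substrate. Rsad2 measured 0.291, 1.56 and 0.442 CPM in HFc and 18, 10.2 and 6.26 in HFs. It measured 0.783, 0.419 and 0.365 CPM in KFc and 13.3, 0.288 and 14.6 in KFs. It measured 0.0593, 0.314 and 0.0877 CPM in TFc and 38.5, 10.9 and 17.6 in TFs. Only KFs replicate 2 fell among or below the controls of its own organ for this gene. The log2 fold changes were 3.85 ± 0.98 (adjusted p = 0.00361), 4.17 ± 1.0 (0.00325) and 7.18 ± 1.2 (0.000293) in heart, kidney and tail.

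Cmpk2 measured 0.182, 0.406 and 0.442 CPM in HFc and 5.59, 4.49 and 2.16 in HFs. It measured 0.447, 0.209 and 1.10 CPM in KFc and 5.21, 0.961 and 5.29 in KFs. It measured 0, 0.118 and 0.219 CPM in TFc and 20.0, 10.1 and 9.16 in TFs. Again KFs replicate 2 overlapped culture, and the changes were 3.56 ± 0.77 (adjusted p = 0.00107), 2.68 ± 0.71 (0.00579) and 6.94 ± 0.91 (3.13e-05).

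Bst2 encodes tetherin, which holds budding virions on the cell surface. It measured 10.8, 8.12 and 5.45 CPM in HFc and 10.3, 13.8 and 12.5 in HFs, which overlapped. It measured 4.10, 4.71 and 5.98 CPM in KFc and 16.2, 5.45 and 12 in KFs. It measured 3.14, 3.53 and 4.38 CPM in TFc and 49.6, 37.4 and 28.3 in TFs. It was not called in heart (0.58 ± 0.33, adjusted p = 0.142), and was called in kidney (1.18 ± 0.34, adjusted p = 0.00869), where the call was lost without KFs replicate 1, and in tail (3.39 ± 0.36, adjusted p = 3.94e-06).

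Ifi35, a leucine-zipper protein that pairs with Nmi, was the 1 gene called nowhere. It measured 12.7, 12.2 and 10.8 CPM in HFc and 11.5, 11 and 11.5 in HFs. It measured 17, 16.2 and 14.2 CPM in KFc and 11.4, 6.05 and 13 in KFs. It measured 10.1, 10.6 and 10.3 CPM in TFc and 22.6, 17.6 and 16.2 in TFs. KFs lay wholly below KFc and TFs wholly above TFc, with log2 changes of -0.65 ± 0.20 (adjusted p = 0.0159) and 0.86 ± 0.20 (adjusted p = 0.00384), both within the limit on size. Ifi44, Xaf1, Rtp4 and Parp14 were called in each organ, with log2 fold changes from 1.23 to 3.29 in heart, 1.79 to 3.25 in kidney and 2.54 to 4.82 in tail. The kidney call of Rtp4 was lost without KFs replicate 1 and when KFs and KFc were fitted alone, and the heart call of Xaf1 without HFc replicate 3.

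The RNA sensors of the RIG-I family were Ddx58 (RIG-I), Ifih1 (MDA5) and their regulator Dhx58 (LGP2). All 3 were called in tail, Ifih1 and Dhx58 in heart, and none in kidney. Dhx58 measured 3.02, 2 and 2.55 CPM in HFc and 8.95, 9.96 and 9.18 in HFs. It measured 1.98, 2.72 and 2.89 CPM in KFc and 7.11, 1.73 and 4.13 in KFs. It measured 2.40, 2.35 and 2.41 CPM in TFc and 33.9, 23.8 and 17 in TFs. The heart and tail groups separated and the kidney groups overlapped, with log2 fold changes of 1.89 ± 0.37 (adjusted p = 0.000495), 0.76 ± 0.37 (0.1) and 3.38 ± 0.39 (8.06e-06) in heart, kidney and tail. Without KFs replicate 2, Dhx58, Ifih1, Ifit3 and Ifit3b were also called in kidney.

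The interferon-inducible GTPases include the guanylate-binding proteins (Gbp2, Gbp3, Gbp7) and the immunity-related GTPases (Igtp, Irgm1, Iigp1), which act on the vacuoles of intracellular pathogens and are strong targets of interferon gamma. All 6 were called in tail, and 5 in heart and in kidney, Irgm1 being the exception. Iigp1 measured 0.838, 1.25 and 1.28 CPM in HFc and 39.5, 39.4 and 41.1 in HFs. It measured 0.447, 0.419 and 0.0664 CPM in KFc and 35.2, 3.01 and 21.6 in KFs. It measured 1.13, 1.49 and 1.14 CPM in TFc and 144, 174 and 96.3 in TFs. Every transplanted library, KFs replicate 2 included, lay above its controls, and the log2 fold changes were 5.16 ± 0.66 in heart (adjusted p = 9.48e-06), 6.00 ± 0.76 in kidney (1.26e-05) and 6.78 ± 0.68 in tail (2.55e-06).

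Gbp2 measured 7.83, 6.29 and 6.29 CPM in HFc and 51.7, 51.1 and 80.2 in HFs. It measured 13.4, 11.3 and 13 CPM in KFc and 54.9, 17.8 and 35.3 in KFs. It measured 17.9, 14.8 and 19.3 CPM in TFc and 173, 242 and 162 in TFs. The groups were separate in each organ, and the rise of 3.16 ± 0.32 in heart (adjusted p = 1.08e-06) and of 3.47 ± 0.32 in tail (1.06e-06) stood against 1.52 ± 0.30 in kidney (0.000711).

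Irgm1, which directs the other immunity-related GTPases, measured 74.1, 64.6 and 56.7 CPM in HFc and 48.7, 42.7 and 33.2 in HFs, all below culture. It measured 47.1, 46.5 and 48.1 CPM in KFc and 44.7, 19.7 and 75.4 in KFs. It measured 11.8, 11.9 and 13.5 CPM in TFc and 73.4, 70.4 and 54 in TFs. KFs libraries lay on both sides of culture, while the tail groups were far apart. Its change was -0.65 ± 0.31 in heart (adjusted p = 0.0838), -0.023 ± 0.31 in kidney (0.960) and 2.41 ± 0.33 in tail (4.2e-05). Igtp shares 7.80% of its 75-base windows with the neighbouring Irgm2, and Gbp7 shares 11.3% with other genes.

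Tap1, a subunit of the transporter that loads peptides for class I presentation, measured 22.7, 22.7 and 21.3 CPM in HFc and 35, 32.1 and 32.8 in HFs. It measured 19.5, 24.1 and 20.2 CPM in KFc and 30.5, 13.7 and 26.4 in KFs. It measured 23.5, 25.9 and 20.4 CPM in TFc and 68.7, 63.4 and 47 in TFs. Heart and tail separated from culture, with changes of 0.58 ± 0.22 (adjusted p = 0.0306, not called) and 1.36 ± 0.22 (adjusted p = 0.00017), and the kidney change was 0.14 ± 0.21 (adjusted p = 0.611).

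The interferon-stimulated genes were uneven across the KFs libraries. Of the 36 genes, 33 lay above every KFc library in KFs replicate 1, 14 in replicate 2 and 35 in replicate 3, where this held for 43.2%, 42.3% and 45.8% of all genes tested. Below every KFc library lay 2, 16 and 1 of the 36, against 40.5%, 41.0% and 40.2% of all genes. The 14 that lay above culture in KFs replicate 2 were Oas1a, Oas2, Oasl1, Oasl2, Isg15, Zbp1, Xaf1, Parp14, Irf1, Irf7, Gbp2, Gbp7, Igtp and Iigp1, and the 16 below it included all IFIT genes, the RNA sensors, Stat2 and Irf9. In heart the 3 libraries had medians of 2.27, 1.94 and 1.86 (log2 ratio to the cultured mean, on CPM plus 0.5), and in tail 4.02, 3.52 and 2.93. The summed level of 12 leukocyte and macrophage markers was 159, 128 and 38.5 CPM in KFs replicates 1, 2 and 3, and that of 12 proximal tubule markers 137, 69.5 and 104.

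**Figure D4:**
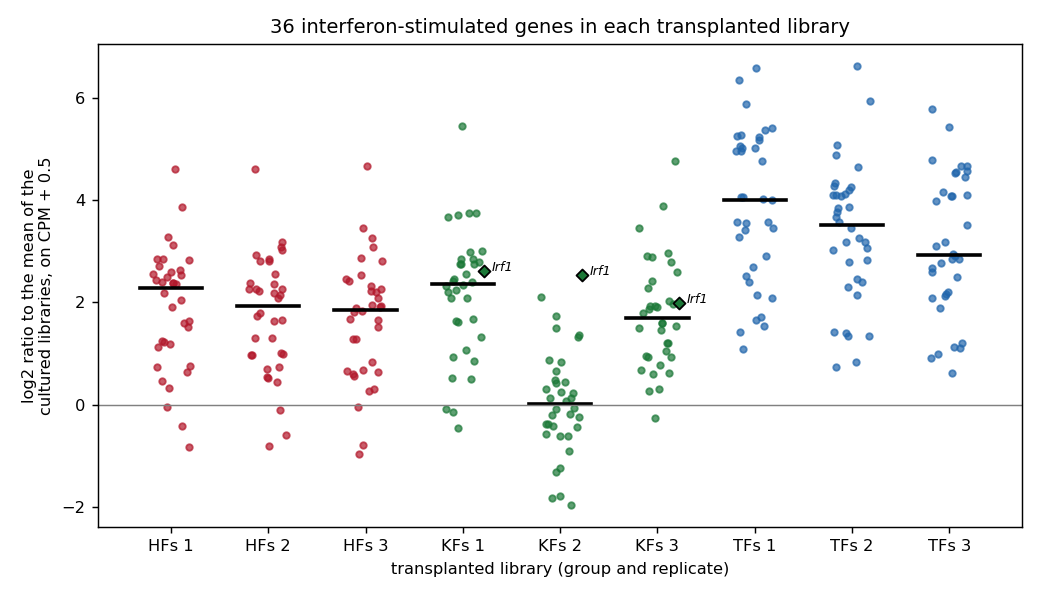
Log2 ratio of each of the 36 interferon-stimulated genes to the mean of the cultured libraries of its organ (on CPM + 0.5), for the 9 transplanted libraries; black lines are medians, and diamonds mark Irf1 in KFs. KFs 2 has a median of 0.0014 while its Irf1 point stays with those of KFs 1 and KFs 3; medians of the 3 TFs libraries lie between 2.93 and 4.02.

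The responses themselves were then compared between organs by interaction contrasts (change in 1 organ minus change in another, called at an adjusted p under 0.05 in the same quasi-likelihood fit of edgeR). The response of heart was lower than that of tail for 15 of the 36 genes and higher for none, where 12.7% of all genes were lower and 10.1% higher. The response of kidney was lower than that of tail for 20 and higher for none, against 6.07% and 4.99%. Heart responded more than kidney for 1 gene, Gbp2, and less for none, against 10.7% and 15.5%. That pair gave 4 genes higher in heart without KFs replicate 3, 3 without KFs replicate 1, and 1 higher and 3 lower without KFs replicate 2. The heart count moved with single libraries, from 8 without TFs replicate 1, 9 without HFc replicate 1 and 9 without HFs replicate 2 to 30 without KFs replicate 2, whose spread enters the variance shared by all groups. The kidney count fell to 13 without KFc replicate 1, TFc replicate 1 or TFc replicate 2 and to 12 without TFc replicate 3. Without KFs replicate 1 it was 25, without KFs replicate 2 it was 21, and without KFs replicate 3 it was 22. Both tail comparisons use the same TFs and TFc libraries.

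The smallest p of the heart and tail contrast were those of Irgm1 (-3.06 ± 0.45, adjusted p = 0.000214), Bst2 (-2.80 ± 0.47, adjusted p = 0.000722) and Zbp1 (-4.21 ± 0.82, adjusted p = 0.00205). Those of the kidney and tail contrast were Irgm1 (-2.43 ± 0.44, adjusted p = 0.00285), Oas1a (-3.45 ± 0.65, adjusted p = 0.00332) and Ifi35 (-1.51 ± 0.29, adjusted p = 0.00382). A response is a change from culture, so it also holds the difference between organs in culture. Mean Irgm1 was 65.1, 47.3 and 12.4 CPM in HFc, KFc and TFc, and 41.5, 46.6 and 66 in HFs, KFs and TFs. Over the 36 genes the median log2 difference in culture was 0.55 for HFc minus TFc and 0.14 for KFc minus TFc. For Isg15 the response differed from that of tail by -3.17 in heart and -3.28 in kidney, and for Irf7 by -2.15 and -2.56. Gbp2 responded more in heart than in kidney by 1.65 ± 0.43 (adjusted p = 0.0106), and Oas1a (1.81 ± 0.65, adjusted p = 0.0502) and Dhx58 (1.13 ± 0.52, adjusted p = 0.125) came next without passing.

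Of the 7 genes called in tail but not in heart or kidney, the difference of the responses passed for Ifit2, Ifit3, Ifit3b and Irgm1 in both contrasts and for Tap1 in that with kidney (-1.22 ± 0.30, adjusted p = 0.0176). The heart contrast of Ifit2, Ifit3, Ifit3b and Irgm1 passed in all 25 other settings, as did the kidney contrast of Irgm1. In the kidney contrast the adjusted p was 0.0432 for Ifit2, 0.0239 for Ifit3 and 0.0437 for Ifit3b, and these passed in 12, 20 and 9 of the 25 settings. None of the 3 passed when only those groups were fitted, Ifit2 was also lost with library size alone, Ifit3 without KFc replicate 2 or any TFc library, and Ifit3b under the replicate block. For Ddx58 (-0.80 ± 0.28, adjusted p = 0.0545, with heart, and -0.86 ± 0.28, adjusted p = 0.0648, with kidney) and Irf9 (-0.91 ± 0.34, adjusted p = 0.064, and -0.71 ± 0.34, adjusted p = 0.199) it did not pass in either contrast. Ddx58 passed in 8 of the other settings with heart, DESeq2 and the replicate block among them, and in 4 with kidney. Irf9 passed in 5 with heart, DESeq2 among them, and in 0 with kidney.

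In culture, in the fit of all 6 groups, the counts of genes that differed between organs lay near or below the shares of all genes tested. The comparisons with KFc gave more calls without KFs replicate 2, which is not a cultured library. HFc was higher than TFc for 9 of the 36 genes and lower for 3, where 20.9% and 21.0% of all genes were. KFc was higher than TFc for 5 and lower for 2, against 17.8% and 18.5%, and HFc was higher than KFc for none and lower for 3, against 15.1% and 14.0%. Irgm1 was the clearest, at 2.39 ± 0.33 higher in HFc (adjusted p = 2.57e-05) and 1.93 ± 0.32 higher in KFc (adjusted p = 0.000259) than in TFc on the log2 scale. Ifit3 was 2.54 ± 0.65, Isg15 2.13 ± 0.65 and Zbp1 2.44 ± 0.68 higher in HFc than in TFc. Irf1 was lower in HFc and KFc than in TFc, with log2 differences of -1.11 ± 0.20 and -1.13 ± 0.20. Leaving out KFs replicate 2 gave 9 genes higher in HFc than in KFc, and for KFc against TFc it gave 10 higher and 5 lower. The shares of all genes without that library are not given here. Without HFc replicate 1, 5 were higher in HFc than in TFc, and Isg15 and Zbp1 were among the calls lost. Isg15 was also lost without TFc replicate 3.

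Among transplanted cells, 21 of the 36 genes were lower in HFs than in TFs and none higher, against 12.7% and 10.3% of all genes, with a median log2 difference of -1.38. In KFs 29 were lower than in TFs and none higher, against 13.8% and 15.3%, with a median of -1.76. Without KFs replicates 1, 2 and 3 in turn, the count was 32, 27 and 30 and the median -2.17, -1.33 and -1.83. Every HFs library lay below every TFs library for 33 genes (23.7% of all genes) and every KFs library for 30 (18.7%). The HFs count was 32 without KFs replicate 2, and 12, 9 and 13 without HFs replicate 1, 2 and 3. It was 9 without TFs replicate 1 and 13 without TFs replicate 2. HFs exceeded KFs for Dhx58, Ifih1 and Irf7, against 14.2% of all genes higher and 19.0% lower, for none without KFs replicate 2, for 1 without KFs replicate 3, and for 15 without KFs replicate 1. When only the groups compared were fitted, 3 of the 36 were lower in KFs than in TFs.

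The interferons themselves were close to the floor. Of 21 interferon genes listed, 17 had a row, and their summed level was at most 0.969 CPM in any library. Ifnb1 had no counts in any library and Ifng at most 0.0759 CPM. Ifnz was the only ligand tested, and in HFs it was at or under the floor, at least 3.95-fold lower than in HFc. The receptor chains were present in every group: Ifnar1 lay between 50.8 and 93.7 CPM, Ifnar2 between 28 and 113, Ifngr1 between 43.4 and 105 and Ifngr2 between 34.3 and 82.3. In tail Ifnar2 and Ifngr1 were called higher, by 1.18 ± 0.16 (adjusted p = 5.21e-05) and 1.12 ± 0.22 (adjusted p = 0.000909), and in kidney Ifnlr1, at 2.17 ± 0.67 (adjusted p = 0.0145). Ifnlr1 measured 0.485, 0.416 and 3.57 CPM in KFs and 0.224, 0.454 and 0.299 in KFc, and without KFs replicate 3 its change was 0.42 (adjusted p = 0.478) and not called. None of the 6 receptor genes was called in heart.

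Of 12 genes of receptor signalling reported here, 4 were higher and 1 lower in heart, 3 and 3 in kidney, and 3 and 0 in tail, with median log2 fold changes of 0.28, -0.22 and 0.21. These shares stand against the backgrounds of all genes given with the first counts (18.3%, 14.7% and 11.0% higher). Jak2, a receptor-associated kinase, and Socs3 were called higher in all 3 organs. The feedback inhibitors Socs3 in kidney (2.93 ± 0.21, adjusted p = 5.86e-08) and Socs1 in heart (2.54 ± 0.34, adjusted p = 1.28e-05) were called higher. The phosphatase genes Ptpn6 in kidney (-1.72 ± 0.39, adjusted p = 0.00179) and Ptpn11 in heart (-1.51 ± 0.087, adjusted p = 4.16e-09) were called lower. The kidney calls of Socs3 and Ptpn6 held without any single KFs library. Of 13 genes of nucleic acid sensing, 1, 1 and 4 were higher in heart, kidney and tail. In heart and kidney, 1 of 13 lay below the share of all genes called higher (18.3% and 14.7%), and the kidney call was lost without KFs replicate 2. In tail, where 11.0% of all genes were higher, the genes called included Tlr3 (1.55 ± 0.26) and the kinase gene Ikbke (1.43 ± 0.15). Tlr7 was lower in kidney (-2.56 ± 0.74), where 7.99% of all genes were, and also without any single KFs library.

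A wider list held 54 further interferon-stimulated genes. Of the 49 tested, 27 were higher and 1 lower in HFs, 22 and 0 in KFs, and 38 and 0 in TFs, with median log2 fold changes of 1.58, 1.00 and 2.47, where 18.3%, 14.7% and 11.0% of all genes were higher. Without KFs replicate 1 the kidney counts were 18 and 2, and without replicate 2 or 3 they were 23 and 0 or 22 and 0. The chemokine gene Ccl5 measured 0, 0.157 and 0 CPM in TFc and 130, 161 and 105 in TFs. Cxcl10, which attracts activated T cells, measured 0, 0 and 0.0438 CPM in TFc, all at or under the floor, and 35.7, 29.2 and 18.2 in TFs, at least 246-fold higher. Cxcl10 reached 6.73, 4.01 and 7.86 CPM in HFs and 6.51, 0.705 and 7.73 in KFs, so KFs replicate 2 was again the lowest. Ifi27 was lower in heart (-1.23 ± 0.19, adjusted p = 6e-05). Of 9 genes of antigen processing, 5 were higher in heart, 2 in kidney and 8 in tail, and none lower, against the same backgrounds. The kidney count was 3 without KFs replicate 2. Psmb9 and Psmb8, subunits of the immunoproteasome, gave the largest rises, Psmb9 in tail by 3.69 ± 0.65 and Psmb8 in heart by 3.25 ± 0.26.

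Other cell types could contribute RNA to sorted cells, and their markers were measured. The summed level of 12 leukocyte and macrophage markers was 191 to 222 CPM in TFc and 43.3 to 50.1 in TFs, 470 to 509 in KFc and 38.5 to 159 in KFs, and it was 103 to 118 CPM in HFc and 97.5 to 168 in HFs. Of the 12, 6 were called lower in TFs, 8 lower in KFs and 1 higher in HFs. Beside this and the marker counts below, 11.0% of all genes tested were called higher in TFs, 18.3% in HFs and 14.7% in KFs. Called lower were 5.53% in TFs, 9.33% in HFs and 7.99% in KFs. The leukocyte marker Ptprc, which encodes CD45, lay between 3.65 and 4.12 CPM in TFs and between 3.83 and 5.33 in TFc. The 14 lymphocyte, natural killer and plasmacytoid markers summed to 16 to 17.5 CPM in TFs and 7.28 to 7.39 in TFc. They summed to 15.4 to 19.4 CPM in HFs and 6.63 to 7.36 in HFc, and to 10.8 to 17.8 in KFs and 5.55 to 6.77 in KFc. Of the 14, 8 were at or under the floor in every TFs library, 9 in every HFs library and 10 in every KFs library. The 8 neutrophil markers summed to 16.4 to 18 CPM in TFs and 7.10 to 11.8 in TFc. They summed to 20.4 to 36.3 CPM in HFs and 6.29 to 8.41 in HFc, and to 19.1 to 21.9 in KFs and 6.14 to 7.88 in KFc. Of the 8, 3 were at or under the floor in every TFs library, 3 in every HFs library and 1 in every KFs library. Of the lymphocyte group 3 were tested, of which 2, 2 and 1 were higher in TFs, HFs and KFs, and of the neutrophil group 3, of which 2, 3 and 2 were. Markers of proximal tubule, which surrounds the graft, were higher than in culture in all 3 organs: 12 of 12 were called higher in HFs and in TFs and 9 of 12 in KFs, with none lower. The 12 summed to 146 to 362 CPM in TFs against 21.3 to 23.2 in TFc, to 69.5 to 137 in KFs against 106 to 114 in KFc, and to 128 to 1250 in HFs against 23.3 to 27.2 in HFc. HFs replicate 2 held the 1250. The kidney sums were carried by Lrp2, at 92 to 99.1 CPM in KFc and 22.6 to 55.2 in KFs, while Kap, Slc34a1, Slc27a2, Pck1, Slc22a6 and Miox were at 0 in every KFc library and above 0 in every KFs library. Endothelial markers summed to 43 to 47 CPM in TFs and 38 to 43.1 in TFc, 59.4 to 68.7 in HFs and 39.8 to 42.8 in HFc, and 25.8 to 47.2 in KFs and 35.2 to 37.6 in KFc. Of these 8 markers, 3 were called higher in TFs and 7 in HFs, and in KFs 4 were higher and 1 lower. Without KFs replicate 1 the kidney counts were 2 and 2. Red cell markers, at 0 in all cultured libraries, reached at most 42.5 CPM in the transplanted ones, and 5 of 5 were called higher in HFs and in TFs and 1 in KFs. Their sum was 38.3, 0.132 and 42.5 CPM in HFs replicates 1, 2 and 3. The kidney count of red cell markers was 0 without KFs replicate 1 or 2 and 5 without KFs replicate 3. The part of recipient cells in the interferon-stimulated genes was not tested.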

How the data were processed

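Total RNA of sorted or cultured fibroblasts had been made into stranded libraries and read as 75-base single ends. For cells from the kidney capsule the paper names a SMARTer Stranded Pico kit for total RNA, chosen because little RNA was available. The kit of the cultured controls is not named separately. A possible difference in preparation therefore cannot be told apart from the effect of transplantation. Per the methods, the authors ran RSEM, which used Bowtie2, against GRCm38 after quality trimming. The labels list mm9 instead. The values they deposited are expected counts of each gene, not normalized. The deposited expected counts are whole numbers and were used as given. Library totals lay between 17927838 and 32245168 counts.

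The model was fitted in edgeR 4.0.16 (R 4.3.3) to all 18 libraries, each group having its own mean, after filterByExpr and TMM scaling. Its quasi-likelihood p-values were adjusted (Benjamini-Hochberg) across 16577 genes. Transplanted and cultured cells were compared at an adjusted p of 0.05 and a log2 fold change beyond 1, organs and responses at the adjusted p alone. Errors are standard errors of the log2 fold change. The fit was tested on simulated data. DESeq2 1.42.0 was an alternative. Symbols and positions came from GENCODE vM21 (GRCm38). Detection floors cover counting error only.

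The interferon-stimulated genes and the other lists were chosen with earlier results of these data known. Values in every library are given for the 4 largest and 4 smallest changes in each transplant comparison, the 3 smallest p of each response contrast, and Isg15, Irf7, Stat2, Irf1 and Zbp1. From the other lists the receptor chains, Ifnb1, Ifng and the 2 largest called changes of each list in each direction are named, and other counts of 5 or fewer were named after their values were seen. A withheld item is not reported here.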

Additional observations from a re-analysis of the deposited data

Results flagged for a closer look

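The responses of heart and tail fibroblasts differed in the tests of the difference itself: 15 interferon-stimulated genes responded less in heart, led by Irgm1 (-3.06 on the log2 scale), Bst2 (-2.80) and Zbp1 (-4.21). Kidney and tail differed for 20, led by Irgm1 (-2.43), Oas1a (-3.45) and Ifi35 (-1.51). Heart and kidney differed for 1, Gbp2, whose response was 1.65 higher in heart. Groups of 3 libraries were too small for the test of single outlying libraries. These 3 contrasts share libraries with each other. The responses are changes from culture, where the levels of some genes, Irgm1 among them, also differed between organs.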

How the results depend on the processing

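The values of single interferon-stimulated genes mostly held: with library size alone all 46 kept their direction and side of the threshold, with DESeq2 44 did, and with 1 library left out 809 of 828 did. Stat2 in heart (1.01 to 1.16) and Oas1a in the heart and kidney contrast (1.81 to 2.12) passed under other settings, and Ifit2 in tail (0.99) did not without TFs replicate 1. The cause of each change was not tested.

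With no limit on fold change, 1 gene was lower in HFs than in HFc and 1 in KFs than in KFc. DESeq2 called 1 gene higher in HFc than in KFc. For a response higher in heart than in kidney, DESeq2, its size factors alone, a mean of at least 10 counts, the replicate block and the fit of those groups alone each gave 2. Fitting only the groups compared leaves fewer libraries for the variance, and KFs enters it only where KFs is compared. It gave 17 higher in KFs than in KFc, 11 higher and 9 lower for KFc against TFc, and 15 higher in HFc than in KFc. Lower than in TFs were 32 genes in HFs and 3 in KFs, and 0 were higher in HFs than in KFs. Responses were lower than in tail for 31 in heart and 11 in kidney. The shares of all genes in these fits are not given here, so these counts stand without a background. Scaling by library size alone moved the median of all genes by -0.16 in HFc against TFc, -0.22 in HFs against TFs and -0.20 in HFs against KFs. Of all genes called, 35.6%, 19.6% and 23.0% were then higher, against 49.9%, 44.8% and 42.8%, and in HFc against KFc 40.7% against 52.0%. The counts of interferon-stimulated genes stayed within 1.5 times under that scaling.

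With 1 library left out, counts ran from 5 to 10 for HFc above TFc, 2 to 10 for KFc above TFc (2 without KFc replicate 1, 3 without TFc replicate 1 or 2), 1 to 5 for KFc below TFc (1 without KFc replicate 1 or 3 or any TFc library), 0 to 9 for HFc above KFc, 1 to 4 for HFc below KFc (1 without HFc replicate 3), 9 to 32 for HFs below TFs, 0 to 15 for HFs above KFs, 8 to 30 and 12 to 25 for responses lower in heart and in kidney than in tail, and 1 to 4 higher and 0 to 3 lower for heart against kidney. The transplant counts ran from 24 to 28 in heart, 18 to 28 in kidney and 33 to 35 in tail.

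Replicate numbers did not pair the libraries: same-numbered libraries had residual correlations from -0.189 to 0.122, over 0.1 in at most 1 of 3 pairs of a comparison. As a replicate block they gave 6 genes higher in HFs than in KFs.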
